A study of Homo sapiens with 12 samples.

Results

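DCN, LUM, DPT, PI16, FBLN1, MFAP5, PDPN, FAP and THY1 are genes commonly used to mark fibroblasts, the cells that build the connective tissue of an organ or a tumour. They were matched by symbol and chosen with earlier results of these data known. All 9 were among the 26475 gene symbols counted in each of 12 RNA-seq libraries. The libraries came from SUM159 (SUM159PT), a human triple-negative breast cancer cell line, grown as tumours in female NOD scid gamma mice that were 8 weeks old at injection. The mice ate a standard diet (CTR, labelled untreated) or repeated rounds of a fasting-mimicking diet (FMD), a low-calorie regimen applied on 4 days in a row each week. Tumour cells were stained with antibodies to human CD44 and human CD24 and sorted into CD44+ cells with low CD24 (LO) or with high CD24 (HI). The 4 groups were standard diet, CD44+ CD24-low (CTR_LO), standard diet, CD44+ CD24-high (CTR_HI), fasting-mimicking diet, CD44+ CD24-low (FMD_LO), and fasting-mimicking diet, CD44+ CD24-high (FMD_HI), with 3 libraries each. All 4 groups came from 1 cell line in the same host strain. The titles number the replicates but nothing says that each came from its own mouse, so p-values measure only the spread between these libraries, which may be technical.

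NOD scid gamma mice lack mature T, B and natural killer cells but keep their own fibroblasts, vessels and myeloid cells. The reads were aligned to the human genome, and how mouse reads were handled is not given among the sources at hand. In a gene total, reads of tumour cells and reads of mouse host cells that align to human genes cannot be told apart. Nor can fewer cells of a type be told apart from less RNA per cell in such bulk libraries.

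Fibroblasts secrete the collagens and the proteins that organise them. Decorin (DCN) and lumican (LUM) are small leucine-rich proteoglycans that bind collagen fibrils and set their spacing, and dermatopontin (DPT) binds decorin and helps fibrils assemble. Fibulin-1 (FBLN1) is a glycoprotein of basement membranes and elastic fibres, and MFAP5 (MAGP-2) sits on the fibrillin microfibrils around elastin. PI16 is a secreted or surface-anchored protein that, with DPT, marks a fibroblast state shared by many organs. FAP is a surface prolyl peptidase of activated fibroblasts, THY1 (CD90) is a surface glycoprotein of fibroblasts and other mesenchymal cells, and podoplanin (PDPN) is a mucin-like surface glycoprotein found on fibroblasts, lymphatic endothelium and the leading edge of many carcinomas.

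Total counts per library ran from 17736610 to 47587142, and the 3 FMD_LO libraries were the shallowest, at up to 18579816. FMD_LO also stood apart from the other 9 libraries on the first principal component (57.4% of the variance), at 79.5 to 88.9 against -46.1 to 2.35. The line's own markers were present: the summed level of VIM, CD44, EGFR, AXL, KRT18 and KRT8 was 6420 to 8330 CPM in the 12 libraries, while ESR1, the oestrogen receptor, stood at up to 0.577 CPM as a group mean and the epithelial marker EPCAM at up to 0.476. The 9 epithelial markers summed to 2660 to 8590 CPM, most of it the basal keratins KRT5 and KRT14. Values are CPM (a gene's count scaled to its library's total), with library sizes adjusted by TMM, as mean ± SD with n = 3 for a group, and a called difference has a Benjamini-Hochberg adjusted p below 0.05 over 15461 genes tested with edgeR's quasi-likelihood test. A log2 fold change is printed with an approximate standard error. Intervals on counts cover counting error only, since PCR reads without molecular identifiers are not independent molecules.

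The 9 genes spanned nearly the whole range of expression in these sorted cells, and 2 of them were abundant everywhere. Per kilobase of exon, PDPN averaged 94.2 CPM over the 12 libraries, above 97.4% of the tested genes, and FBLN1 averaged 49.5, above 95%. LUM followed at 5.35 CPM per kilobase, DCN at 3.92, FAP at 3.32, DPT at 3.28, THY1 at 1.30, MFAP5 at 0.249 and PI16 at 0.11. PDPN (66.4 to 133 CPM per kilobase in single libraries) lay above FBLN1 (44.9 to 57.2) in every library, and FBLN1 lay above LUM (0.157 to 20.5). THY1 also lay above MFAP5 in every library. The other neighbours in this order, from LUM downward, changed places in at least 1 library. PDPN and FBLN1 were thus among the highly counted genes in cells sorted with antibodies to human antigens.

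**Figure D1:**
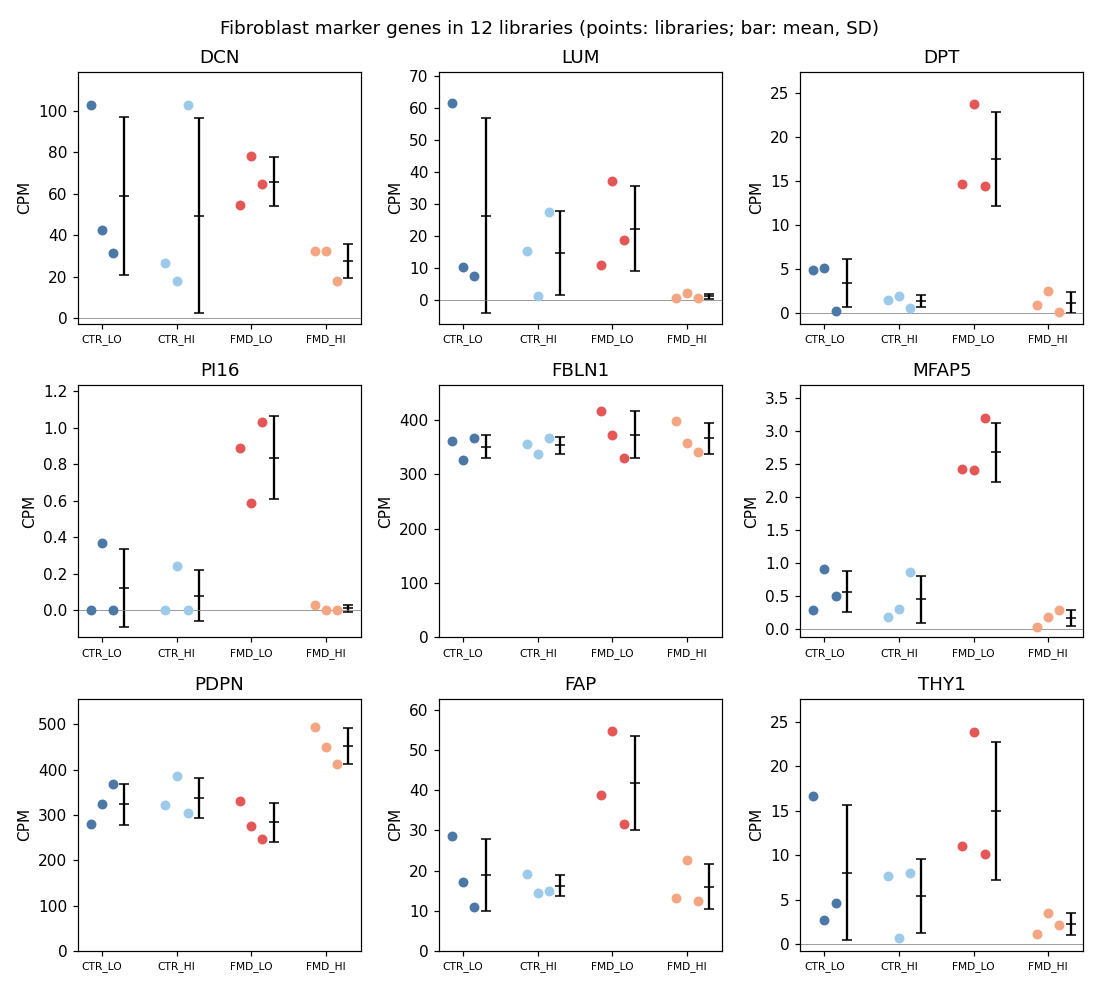
Level of each of the 9 genes in CPM (linear axis from 0 or below) in the 3 libraries of each group. Points are libraries and the bar gives the group mean and SD. FBLN1 lies between 327 and 417 CPM throughout, DPT, MFAP5, PI16 and FAP are highest in the 3 FMD_LO libraries, and PDPN is highest in the 3 FMD_HI libraries.

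RefSeq promoter sequence (GRCh38.p14) was matched for 4 of the 9 genes, DPT, PI16, FBLN1 and PDPN, and is shown for these alone. Each is the 250 bases before the annotated start, read 5′ to 3′ on the gene's own strand, and capitals mark 3 motifs searched on both strands. They were TATAAA, the core of a classical promoter element, GGGCGG, a GC box, and TGANTCA, an AP-1 site, and no matches overlapped in these windows.
DPT (chr1:168729207-168729456, minus strand): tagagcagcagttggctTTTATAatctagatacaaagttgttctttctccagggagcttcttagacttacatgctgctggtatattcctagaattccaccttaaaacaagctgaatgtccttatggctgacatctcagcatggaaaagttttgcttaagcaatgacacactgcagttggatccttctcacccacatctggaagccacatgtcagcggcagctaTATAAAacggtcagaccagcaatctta
PI16 (chr6:36948046-36948295, plus strand): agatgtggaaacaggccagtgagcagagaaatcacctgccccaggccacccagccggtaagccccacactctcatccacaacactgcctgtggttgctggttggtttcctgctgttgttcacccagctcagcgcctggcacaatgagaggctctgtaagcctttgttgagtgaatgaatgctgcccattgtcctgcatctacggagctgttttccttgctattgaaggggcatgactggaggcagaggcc
FBLN1 (chr22:45502633-45502882, plus strand): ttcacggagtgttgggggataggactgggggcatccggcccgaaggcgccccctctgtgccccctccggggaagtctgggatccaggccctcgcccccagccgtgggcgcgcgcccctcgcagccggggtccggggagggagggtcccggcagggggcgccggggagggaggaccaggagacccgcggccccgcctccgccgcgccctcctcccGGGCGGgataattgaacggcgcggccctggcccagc
PDPN (chr1:13583507-13583756, plus strand): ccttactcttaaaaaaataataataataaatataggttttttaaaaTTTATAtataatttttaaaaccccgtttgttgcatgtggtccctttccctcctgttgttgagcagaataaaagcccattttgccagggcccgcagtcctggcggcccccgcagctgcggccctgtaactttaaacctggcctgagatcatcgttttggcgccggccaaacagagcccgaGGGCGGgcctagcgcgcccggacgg

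The DPT window held TATAAA 27 bases before the start and again, on the opposite strand, 233 bases before it. PI16 held none of the 3 motifs. FBLN1 held 1 GGGCGG, 36 bases before the start, and PDPN held 1 at 25 bases with a TATAAA match on the opposite strand at 204. Of 35116 RefSeq promoter windows of this length, 10.7% held TATAAA, 42.6% GGGCGG and 6.57% TGANTCA. The number of CpG dinucleotides was 2 in DPT, 3 in PI16, 14 in PDPN and 27 in FBLN1, against a median of 11. A match is only a match of letters, and a link between these sequences and the levels was not tested.

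The collagen-binding proteoglycans varied widely between replicates. DCN (chromosome 12, 91140484 to 91182817) stood at 54.7, 78.2 and 64.6 CPM in the FMD_LO libraries and at 32.1, 32.3 and 17.8 in FMD_HI, and on the standard diet at 103, 42.6 and 31.3 in CTR_LO and 26.6, 17.8 and 103 in CTR_HI. CTR_LO replicate 1 and CTR_HI replicate 3 were thus the highest of all 12, and the standard-diet groups overlapped every other group. Its variance between replicates was 1550 times counting noise in CTR_HI and 31.6 times in FMD_LO. The 3 FMD_LO libraries lay above the 3 FMD_HI libraries, but the difference was not called (log2 fold change of FMD_HI against FMD_LO -1.27 ± 0.67, adjusted p = 0.271 by edgeR).

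LUM (chromosome 12, 91102629 to 91111494), the next gene along from DCN at a distance of 28990 bases, had its lowest levels in FMD_HI. It stood at 0.472, 2.07 and 0.728 CPM in that group, at 11, 37.2 and 18.8 in FMD_LO, at 15.4, 1.07 and 27.4 in CTR_HI and at 61.5, 10.2 and 7.31 in CTR_LO. The highest FMD_HI library lay below all 3 FMD_LO libraries and above only CTR_HI replicate 2 of the other groups. The fitted difference of FMD_HI from FMD_LO was -4.36 ± 1.30 on the log2 scale with an adjusted p of 0.0562 (edgeR), just outside the threshold. Between diets in CD24-low cells the value was -0.25 ± 1.06, and it became 1.34 without CTR_LO replicate 1, again without a call (adjusted p = 0.455, edgeR). KERA, the proteoglycan gene on the other side of LUM, had 0 counts in FMD_LO, 2 in FMD_HI, 13 in CTR_LO and 7 in CTR_HI, while BTG1, the next coding gene beyond DCN and an inhibitor of cell growth, rose from 505 CPM in CTR_LO to 1020 in FMD_LO (1.02 ± 0.19, adjusted p = 0.00264, edgeR).

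DPT (chromosome 1, 168695468 to 168729206) was highest in all 3 FMD_LO libraries. It stood at 14.6, 23.7 and 14.4 CPM there, at 4.87, 5.07 and 0.208 in CTR_LO, at 1.52, 1.90 and 0.601 in CTR_HI and at 0.882, 2.49 and 0.13 in FMD_HI. No library of another group reached the FMD_LO range. Against FMD_HI it was called (-3.92 ± 1.05, 15.2-fold lower in FMD_HI, adjusted p = 0.0346 by edgeR). Against CTR_LO it was not (2.37 ± 0.95, adjusted p = 0.126), and the CTR_LO libraries themselves ranged from 7 counts in replicate 3 to 151 and 235 in the others. With the replicate number as a block, DPT was called in that comparison too (adjusted p = 0.0224, edgeR). Nothing links replicate numbers across diets, and deviations of same-numbered FMD_LO and CTR_LO libraries had r of -0.117, 0.00128 and 0.0824. The blocked call is therefore no added support.

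FBLN1 (chromosome 22, 45502883 to 45601135) was the steadiest of the 9. Its 12 libraries lay between 327 and 417 CPM, with group means of 373 ± 43.5 in FMD_LO, 366 ± 29.1 in FMD_HI, 353 ± 14.8 in CTR_HI and 351 ± 21.2 in CTR_LO. The 4 groups overlapped, and every fitted difference lay between -0.03 and 0.09 on the log2 scale with a standard error of 0.11, apart from the interaction at 0.04 ± 0.16. Its biological coefficient of variation, the spread between replicates beyond counting noise, was 0.12.

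MFAP5 (chromosome 12, 8645943 to 8662826), a microfibril protein, was scarce but had the smallest adjusted p of the 9. It had 41, 41 and 59 counts in FMD_LO (2.43, 2.41 and 3.20 CPM), 14, 27 and 17 in CTR_LO (0.29, 0.907 and 0.505 CPM), 6, 9 and 30 in CTR_HI (0.178, 0.31 and 0.859 CPM) and 1, 6 and 11 in FMD_HI (0.0315, 0.18 and 0.286 CPM). All 3 FMD_LO libraries lay above all 9 others. MFAP5 rose 4.83-fold from CTR_LO to FMD_LO (2.27 ± 0.58, adjusted p = 0.0164, edgeR), and was 15.4-fold lower in FMD_HI than in FMD_LO (-3.94 ± 0.66, adjusted p = 0.00104). The pooled counts, 141 in FMD_LO against 58 in CTR_LO, gave a ratio per read of 4.9 with an exact 95% interval of 3.58 to 6.77 that covers counting error only.

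PI16 (chromosome 6, 36948296 to 36964837) was at the limit of detection. It had 15, 10 and 19 counts in FMD_LO, 11 in CTR_LO replicate 2, 7 in CTR_HI replicate 2, 1 in FMD_HI replicate 1 and 0 in the remaining 6 libraries. Outside FMD_LO only 1 library reached the level of the count filter, so PI16 was tested only through the group where it was high and its call against FMD_HI (adjusted p = 0.0227, edgeR) is no support for a difference. DESeq2 did not make that call (adjusted p = 0.1). The ratio of pooled counts, 44 in FMD_LO to 1 in FMD_HI, was 83.6 per read with an exact 95% counting interval of 14.2 to 3370. Against CTR_LO, with 11 pooled counts all from replicate 2, the ratio was 8.06 (4.10 to 17.3), and the edgeR difference was not called (adjusted p = 0.0999). Its neighbour MTCH1, 3298 bases away, was called between the same groups at 126 CPM in CTR_LO and 195 in FMD_LO (0.63 ± 0.10, adjusted p = 9.47e-04).

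Of the surface proteins, FAP and THY1 were highest on average in FMD_LO and PDPN in FMD_HI. FAP (chromosome 2, 162170684 to 162243445) stood at 38.9, 54.8 and 31.7 CPM in FMD_LO, against 28.7, 17.1 and 11 in CTR_LO, 19.2, 14.5 and 14.8 in CTR_HI and 13.1, 22.5 and 12.4 in FMD_HI, so that all 3 FMD_LO libraries lay above the other 9. It rose 2.20-fold from CTR_LO to FMD_LO (1.14 ± 0.34, adjusted p = 0.0411, edgeR), and was 2.61-fold lower in FMD_HI than in FMD_LO (-1.39 ± 0.34, adjusted p = 0.0174). DPP4, the peptidase closest to FAP in sequence and a gene nearby on chromosome 2, rose in the same comparison, from 3.17 ± 1.96 to 13.6 ± 1.52 CPM (2.11 ± 0.36, adjusted p = 0.00146), while FAP's direct neighbours GCG and IFIH1 were not called, with 1 to 4 counts a group for GCG and 19.6 CPM in CTR_LO and 14.4 in FMD_LO for IFIH1 (adjusted p = 0.101). Counted without regard to strand, FAP kept fewer reads (1131 instead of 1387 in CTR_LO replicate 1), and its calls in both comparisons held.

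THY1 (chromosome 11, 119415476 to 119424985) stood at 11, 23.9 and 10.1 CPM in FMD_LO and 1.13, 3.57 and 2.18 in FMD_HI, and under the standard diet at 16.7, 2.75 and 4.60 in CTR_LO and 7.64, 0.69 and 8.04 in CTR_HI. The 3 FMD_LO libraries lay above FMD_HI without overlap but overlapped CTR_LO through its replicate 1. Neither difference was called in the 4-group fit (FMD_HI against FMD_LO -2.70 ± 0.94, adjusted p = 0.0962, and FMD_LO against CTR_LO 0.88 ± 0.86, adjusted p = 0.527, edgeR). Same-numbered FMD_LO and FMD_HI libraries deviated together (r from 0.285 to 0.485 over genes), and with the replicate number as a block within each diet the THY1 difference between FMD_HI and FMD_LO was called (adjusted p = 0.0110), as it was by DESeq2 (0.0215), but a block over all 12 libraries did not call it (0.12).

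PDPN (chromosome 1, 13583757 to 13617957) ran the other way. It stood at 493, 451 and 412 CPM in FMD_HI, against 331, 276 and 246 in FMD_LO, 321, 387 and 304 in CTR_HI and 279, 323 and 368 in CTR_LO. The 3 FMD_HI libraries were the highest of the 12, and the other 3 groups overlapped. PDPN was 1.59-fold higher in FMD_HI than in FMD_LO (0.67 ± 0.15, adjusted p = 0.00679, edgeR). Between diets in CD24-high cells it averaged 337 ± 43.6 CPM on the standard diet and 452 ± 40.5 on the other, without overlap and without a call (0.42 ± 0.15, adjusted p = 0.573), and in CD24-low cells 323 ± 44.6 and 284 ± 43.2 (-0.19 ± 0.15, adjusted p = 0.419).

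**Figure D2:**
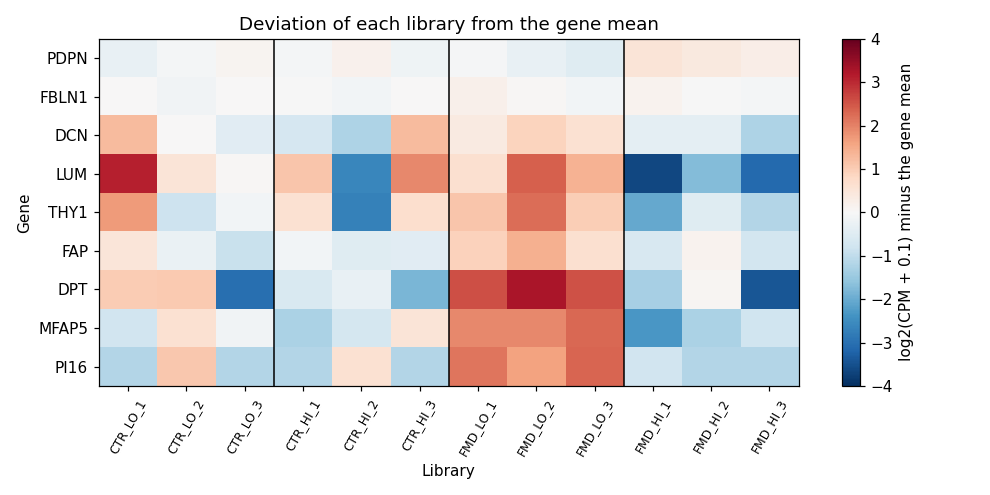
Each cell is log2(CPM + 0.1) of a gene (rows) in a library (columns, vertical lines between groups) minus the gene's mean over the 12 libraries. FBLN1 is flat, DPT, MFAP5 and PI16 are high in the 3 FMD_LO libraries, and FAP is highest there too. LUM and THY1 are also high in CTR_LO replicate 1, and LUM is low in the 3 FMD_HI libraries.

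The first comparison asked what the diet changed in the CD24-low cells. By its design text the study sorted to part stem-like cancer cells from differentiated ones, and CD44+ cells with low CD24 are the population commonly taken as breast cancer stem cells. MFAP5 and FAP rose in FMD_LO against CTR_LO and none of the 9 fell. That is 2 of 9 at a background of 16.4% of all tested genes called, 12% called higher and 4.33% called lower, so the share called was near the background. At an unadjusted p below 0.05 there were 4 of 9, with DPT and PI16 added, at a background of 31%. The groups did not overlap for 4 of the 9 (MFAP5, FAP, DPT and PI16), all higher in FMD_LO, where 19.7% of all tested genes lay wholly above and 17.8% wholly below. PI16 passed the count filter only through FMD_LO, so it had to lie high there and is no support for that count. The median log2 fold change of the 9 was 0.88, against -0.03 over all genes tested. MFAP5 lost its call without CTR_LO replicate 1 (adjusted p = 0.0625, edgeR) or CTR_LO replicate 3 (0.0606), and FAP lost it without CTR_LO replicate 2 (0.101), CTR_LO replicate 3 (0.112), FMD_LO replicate 1 (0.0830) or FMD_LO replicate 2 (0.150). FAP also lost it when the fit held CTR_LO and FMD_LO alone (0.0937) and when no count filter was set (0.0986).

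The same comparison in the CD24-high cells gave no call by edgeR for any of the 9, at a background of 0.0% of genes called, and DESeq2 called none of the 9 either. PDPN and LUM alone had an unadjusted p below 0.05, which 6.74% of all genes had. Only PDPN did not overlap between the groups, being wholly higher in FMD_HI, as were 4.48% of all genes, while 4.72% lay wholly lower. LUM averaged 14.6 ± 13.2 CPM in CTR_HI against 1.09 ± 0.858 in FMD_HI (-3.75 ± 1.28, adjusted p = 0.597, edgeR), and 7 of the 9 had a negative difference. The median over the 9 was -0.85, against 0.0 for all genes tested.

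Between the sorted populations under the standard diet none of the 9 was called by edgeR or DESeq2, and none had an unadjusted p below 0.05, at backgrounds of 0.0% called and 0.589% with such a p. The groups overlapped for all 9, where 1.47% of all genes lay wholly higher and 1.96% wholly lower in CTR_HI. Differences ran from -1.35 ± 1.00 (DPT) to 0.06 ± 0.15 (PDPN) on the log2 scale.

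Under the fasting-mimicking diet the populations differed in 5 of the 9. MFAP5, DPT, FAP and PI16 were lower in FMD_HI and PDPN was higher, at backgrounds of 14% of genes called, 12.2% called lower and 1.84% called higher. PI16 had to differ to be tested at all, so MFAP5, DPT and FAP are the calls on the lower side that could have gone otherwise. At an unadjusted p below 0.05 there were 7 of 9, all but DCN and FBLN1, at a background of 26.2%. The groups did not overlap for 8 of the 9, FBLN1 being the exception: 7 genes lay wholly below in FMD_HI (18.3% of all tested genes did) and PDPN wholly above (13.1%). The median log2 difference was -2.70 for the 9 and 0.06 for all genes tested. With only the 6 FMD libraries in the fit, 8 of the 9 were called, with LUM (adjusted p = 8.85e-04, edgeR), THY1 (0.00305) and DCN (0.00582) added, while without the count filter 3 were (PDPN, MFAP5 and PI16). DESeq2 called 6, with LUM and THY1 but not PI16. With the replicate number as a block within each diet, 6 of the 9 were called, THY1 being added, at a background of 27.2% of all genes.

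MFAP5 and PDPN kept that call in all 12 fits that left out 1 library, FAP in 9 of 12, and DPT and PI16 in 7 of 12. The count fell to 2 without FMD_HI replicate 1 or FMD_HI replicate 3, and to 3 without FMD_LO replicate 1, 2 or 3.

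**Figure D3:**
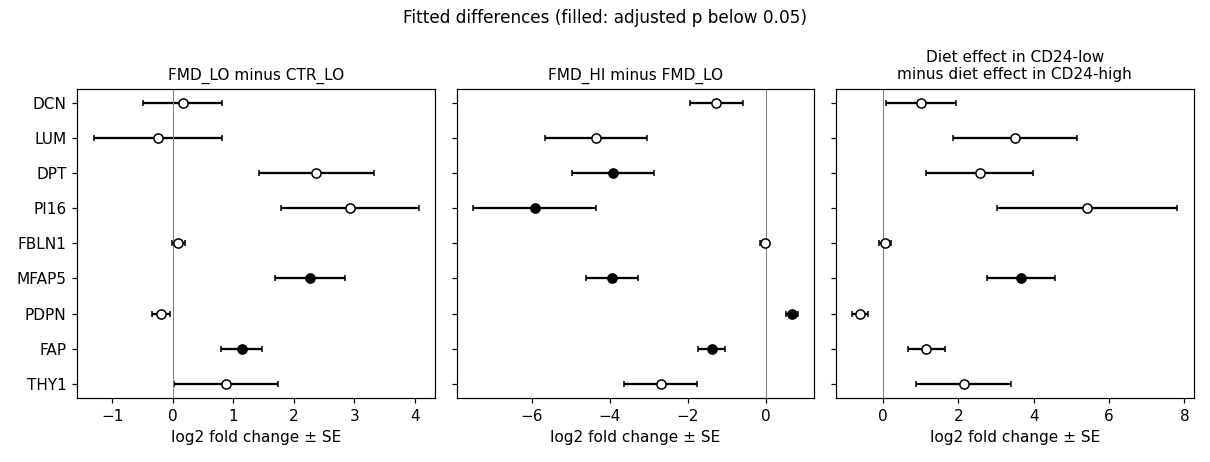
Fitted log2 fold change with its standard error for the 9 genes in 3 comparisons, filled where the adjusted p is below 0.05. MFAP5 is filled in all 3 panels, PDPN lies on the opposite side of 0 from the other called genes in the middle panel, and FBLN1 lies near 0 in each.

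The interaction asked whether the diet effect differed between the populations. It was called for MFAP5, whose diet effect was 3.66 ± 0.90 higher on the log2 scale in CD24-low than in CD24-high cells (adjusted p = 0.0369, edgeR), at a background of 4.13% of genes called, 4.07% with a positive and 0.0517% with a negative difference. The effect was 2.27 ± 0.58 in CD24-low cells and -1.39 ± 0.69 in CD24-high cells. The call was kept in 4 of 12 fits without 1 library and was lost with libraries thinned to the smallest total (0.0794) and without CTR_LO replicate 1 (0.0657), CTR_LO replicate 3 (0.0858), CTR_HI replicate 3 (0.134), FMD_LO replicate 1 (0.0659), 2 (0.0732) or 3 (0.0680), FMD_HI replicate 1 (0.0606) or FMD_HI replicate 2 (0.0890). The other 8 genes were not called, with adjusted p from 0.145 for PDPN (-0.61 ± 0.21) to 0.952 for FBLN1. With the replicate number as a block within each diet, PDPN (0.0201) and FAP (0.00725) were called as well, at a background of 11% of genes.

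Among themselves the 9 genes did not move as 1 block. Over the 12 libraries, LUM went with THY1 (Pearson r of log2 CPM, with a prior count of 2, 0.89) and with DCN (0.83), and FAP with DPT (0.91). PI16 went with DPT (0.79) and MFAP5 (0.79) but hardly with LUM (0.23). PI16 passed the count filter only through FMD_LO and had 0 counts in most other libraries. Its correlation with genes high in FMD_LO is therefore no support, and within groups it was 0.38 with DPT and 0.16 with MFAP5. PDPN ran against LUM (-0.90), THY1 (-0.78) and MFAP5 (-0.76), and FBLN1 was near 0 with LUM (0.01), MFAP5 (-0.04) and PI16 (-0.01). Within groups, as deviations from the 4 group means, LUM and THY1 still shared most of their variation (0.96), as did LUM and DCN (0.80) and FAP and DPT (0.77), and PDPN still ran against LUM (-0.75). These 12 points share groups, depth and library, and the correlations are a description.

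**Figure D4:**
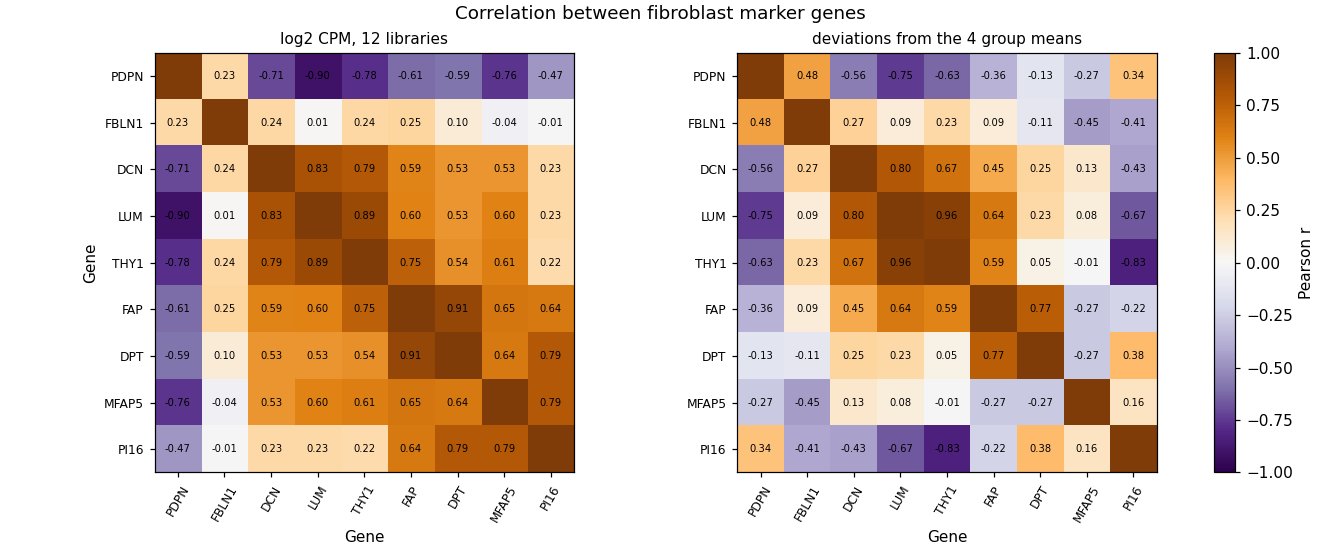
Pearson r between the 9 genes (rows and columns), from log2 CPM over 12 libraries on the left and from deviations from the 4 group means on the right. DCN, LUM and THY1 form a positive block in both panels and PDPN is negative with them in both, while MFAP5 and PI16 are positive with DPT on the left and at -0.27 and 0.38 on the right.

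The biological coefficient of variation was 0.12 for FBLN1 and 0.143 for PDPN, below or near the common value of 0.19, and 0.289 for FAP, 0.455 for MFAP5, 0.538 for DCN, 0.726 for THY1, 0.849 for DPT, 0.88 for LUM and 1.16 for PI16. For DCN, LUM, DPT, PI16 and THY1, at least 97.1% of tested genes had a smaller one. In CTR_LO the highest library exceeded the lowest by 24.4 times for DPT, 8.42 for LUM, 6.07 for THY1 and 3.28 for DCN, against 1.12 for FBLN1.

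Genes with the most similar profile over the 12 libraries were named for each, at a mean of at least 2 CPM. FLRT3 (r = 0.971), SPARC, a collagen-binding matricellular protein (0.969), and CMKLR1 (0.968) stood with LUM. EMILIN1, an elastic fibre glycoprotein (0.968), STRA6 (0.958) and POSTN (periostin, 0.954) stood with THY1. TPP1 stood closest to FBLN1 (0.912), followed by fibronectin, FN1 (0.909), and SH3BP4 (0.907). For the others only the closest gene is named. CCDC80 stood closest to FAP (0.963), PTP4A1 to DPT (0.959), GPX3 to PI16 (0.973), RHOV to MFAP5 (0.952), DCLK2 to DCN (0.935) and CDC42EP4 to PDPN (0.947). These are the highest values over all genes compared, and the libraries share groups and depth. PI16 passed the count filter only through FMD_LO, so its profile had to be high there.

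Genes of the same kinds were described from fixed lists, which were also chosen with earlier results of these data known. Of 25 other fibroblast genes, 24 were tested, and 12 rose and none fell in FMD_LO against CTR_LO (median 0.89, against -0.03 over all genes). Of all tested genes, 12% were called higher and 4.33% lower in that comparison. CD34, a surface sialomucin of fibroblasts and endothelium, rose from 1.01 ± 0.685 to 10.4 ± 1.66 CPM (3.38 ± 0.49, adjusted p = 5.43e-04, edgeR), THBS2 from 19.3 ± 9.23 to 143 ± 20.2 (2.89 ± 0.32, adjusted p = 1.05e-04) and ACTA2, smooth muscle actin, from 85.8 ± 30.0 to 253 ± 82.7 (1.56 ± 0.31, adjusted p = 0.00483). In FMD_HI against FMD_LO, 14 of the 24 fell and none rose, where 12.2% of all tested genes were called lower and 1.84% higher. Between diets in CD24-high cells none of the 24 was called, and the median was -0.38. Their summed level was 62200 to 92000 CPM in FMD_LO and 28400 to 53900 in the other libraries.

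Of 17 small leucine-rich proteoglycans, DCN and LUM among them, 11 were tested and 2 rose in FMD_LO against CTR_LO, where 12% of all tested genes were called higher. These were BGN (biglycan), from 461 ± 220 to 1360 ± 329 CPM (1.56 ± 0.33, adjusted p = 0.00804, edgeR), and PRELP, from 0.347 ± 0.487 to 12.1 ± 3.90 (5.23 ± 1.12, adjusted p = 0.0104). In FMD_HI against FMD_LO 5 fell (BGN, ASPN, FMOD, PRELP and PODN), where 12.2% of all tested genes were called lower. FMOD (fibromodulin) went from 6.94 ± 1.42 to 0.146 ± 0.0373 CPM (-5.54 ± 0.94, adjusted p = 0.00196, edgeR). EPYC, KERA, CHAD, NYX and OPTC had 0 counts in all 3 FMD_LO libraries, the shallowest of the series. All of these but KERA also had 0 counts in all 3 FMD_HI libraries, and OPTC in all 3 CTR_HI libraries.

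Of 20 genes of elastic fibres and fibulins, FBLN1 and MFAP5 among them, all were tested, 8 rose, MFAP5 included, and 1, ELN (elastin), fell in FMD_LO against CTR_LO. Of all tested genes, 12% were called higher and 4.33% lower there. LOX, which cross-links elastin and collagen, rose from 21.2 ± 8.44 to 150 ± 43.6 CPM (2.83 ± 0.29, adjusted p = 6.13e-05, edgeR), EFEMP2 (fibulin-4) from 15.6 ± 7.55 to 94.5 ± 18.0 (2.60 ± 0.31, adjusted p = 1.81e-04) and MFAP2, the paralogue of MFAP5, from 1.62 ± 0.296 to 5.29 ± 1.44 (1.71 ± 0.26, adjusted p = 6.51e-04). In FMD_HI against FMD_LO 10 fell and 2, EFEMP1 and ELN, rose, where 12.2% of all tested genes were called lower and 1.84% higher. Of 9 prolyl peptidases related to FAP, 7 were tested and 3 rose in FMD_LO, where 12% of all tested genes were called higher. They were FAP, DPP4 and DPP8 (from 13.1 ± 1.81 to 27 ± 3.33 CPM, 1.04 ± 0.20, adjusted p = 0.00329, edgeR). The same 3 fell in FMD_HI against FMD_LO, where 12.2% of all tested genes were called lower. Of 16 genes of podoplanin, THY1 and their partners, 15 were tested, with 5 higher and 1 lower in FMD_LO, against 12% and 4.33% of all tested genes. The smallest p among them was that of ITGAM, an integrin of myeloid cells and a THY1 ligand (4.19 ± 0.40, adjusted p = 1.88e-05). RHOA, a GTPase that podoplanin signalling acts on, rose from 589 ± 48.9 to 818 ± 59.9 CPM (0.47 ± 0.12, adjusted p = 0.016), and SDC4, a proteoglycan co-receptor of THY1, fell from 534 ± 106 to 337 ± 8.62 (-0.67 ± 0.17, adjusted p = 0.0165).

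Several lists of markers of other cell types also had members called higher in FMD_LO. Of 10 leukocyte markers, 8 were tested and 6 rose in FMD_LO, where 12% of all tested genes were called higher. CD37 among the 6 averaged at most 0.1 CPM in the other groups, under the filter level of 0.311, so it was tested only through FMD_LO and is no support. The list summed to 153 to 181 CPM in FMD_LO, 14.7 to 24.5 in CTR_LO, 18.4 to 26.8 in CTR_HI and 28.5 to 41.4 in FMD_HI. TYROBP, a defining myeloid adaptor, was nevertheless at 0 in all 3 FMD_LO libraries. PTPRC, the leukocyte antigen CD45, went from 2.94 ± 0.369 to 51.3 ± 7.78 CPM (4.12 ± 0.27, adjusted p = 1.17e-06, edgeR). CSF1R, a macrophage growth factor receptor, went from 1.5 ± 0.278 to 25.2 ± 5.04 CPM, and SPI1, a myeloid transcription factor, from 1.38 ± 0.647 to 43.6 ± 3.87. Of 10 endothelial markers 9 were tested and 2 rose, against 12% of all tested genes, namely KDR (1.81 ± 1.96 to 10.7 ± 5.49 CPM) and TEK (0.664 ± 0.806 to 4.85 ± 1.90), with sums of 49.0 to 103 CPM in FMD_LO and 29.5 to 41.6 elsewhere. TEK averaged at most 0.161 CPM in CTR_HI and FMD_HI, under the filter level of 0.311. At 0.664 ± 0.806 its CTR_LO libraries could not all reach that level, so TEK was tested only through FMD_LO and is no support. Of 8 pericyte markers 5 rose, against 12% of all tested genes. They summed to 972 to 1250 CPM over the whole list in FMD_LO, 486 to 868 in CTR_LO, 394 to 1060 in CTR_HI and 406 to 544 in FMD_HI. The pericyte genes of smallest p were RGS5 (4.05 ± 1.38 to 13.3 ± 5.24 CPM), ABCC9 (1.22 ± 0.253 to 4.12 ± 1.34) and DES (0.567 ± 0.641 to 9.08 ± 3.39). DES averaged at most 0.126 CPM in CTR_HI and FMD_HI, under the filter level of 0.311, and its CTR_LO libraries could not all reach it. It was tested only through FMD_LO and is no support in the pericyte or the muscle list. Of 8 skeletal muscle markers 5 were tested and 3 rose, where 12% of all tested genes were called higher. The list summed to 68.7 to 105 CPM in FMD_LO and 3.99 to 14.4 elsewhere. Beside DES the 3 were ACTA1, skeletal actin (2.45 ± 2.97 to 73.9 ± 16.2 CPM), which made up most of the sum in FMD_LO, and MYLPF (0.0909 ± 0.00908 to 0.424 ± 0.102). MYLPF averaged at most 0.0961 CPM outside FMD_LO, under the filter level of 0.311, so it was tested only through FMD_LO and is no support. The other tested markers did not rise, with TNNT3 from 6.6 ± 1.94 to 3.17 ± 0.797 CPM and TTN from 0.255 ± 0.148 to 0.244 ± 0.212, uncalled. MYH4 was at 0 in all libraries of FMD_LO, CTR_LO and CTR_HI. ITGAM stands among both the leukocyte markers and the THY1 partners, and DES among both pericyte and muscle markers. In FMD_HI against FMD_LO, 6 leukocyte, 5 endothelial, 6 pericyte and 2 muscle markers fell, where 12.2% of all tested genes were called lower. The pericyte marker CSPG4 went the other way and was called higher, at 203 ± 32.8 CPM in FMD_HI and 141 ± 20.5 in FMD_LO. Of all tested genes, 1.84% were called higher there. CD37, TEK and DES, tested only through FMD_LO, are no support for those falls.

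Of 6 adipocyte markers 3 were tested and none was called, with sums of 11.1 to 18.3 CPM in FMD_LO and 7.34 to 19.3 elsewhere. Of 9 epithelial markers, KRT5, KRT14 and KRT18 fell and KRT19 rose, with sums of 2660 to 4930 CPM in FMD_LO and 7100 to 8160 in CTR_LO. Of all tested genes, 4.33% were called lower and 12% higher. KRT19 averaged at most 0.199 CPM outside FMD_LO, under the filter level of 0.311, so its call is no support. The part of these marker genes and of the mouse host in the values of the 9 fibroblast genes was not tested. With all libraries thinned to the smallest total, MFAP5 (2.07, adjusted p = 0.0288) and FAP (1.11, adjusted p = 0.0393) were still called in FMD_LO against CTR_LO (edgeR). The summed level of the 9 themselves, which PDPN and FBLN1 make up for the most part, was 720 to 882 CPM in FMD_LO and 730 to 939 in the other 9 libraries.

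**Figure D5:**
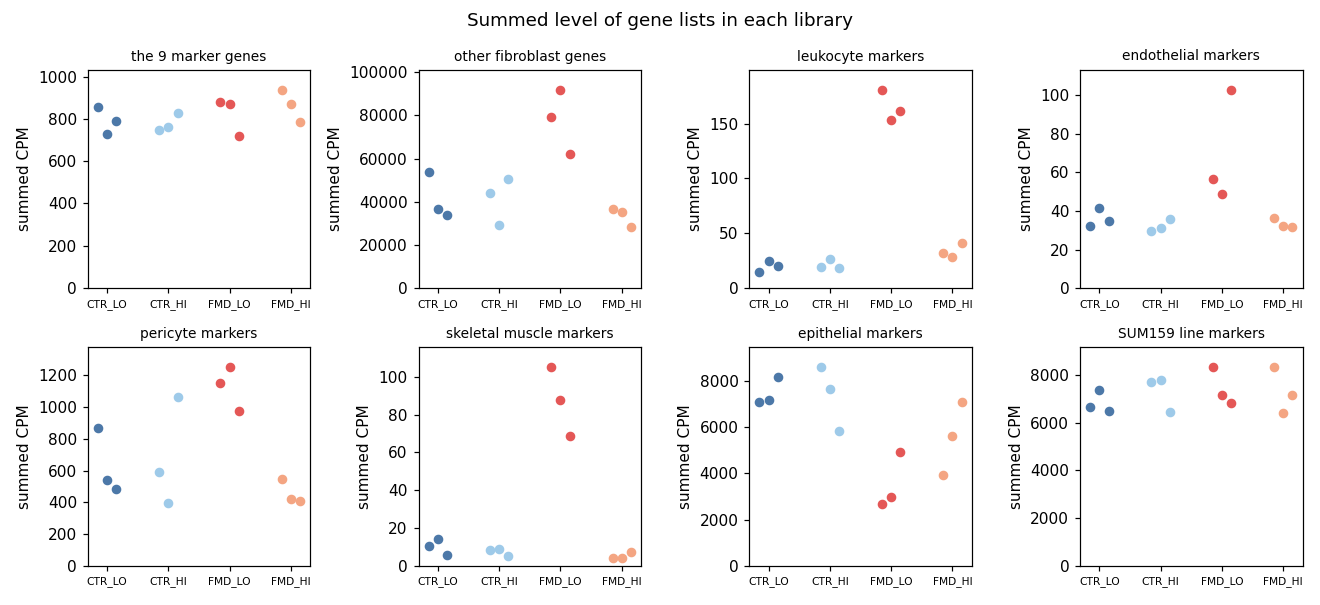
Summed CPM of 8 gene lists (linear axes from 0) in the 3 libraries of each group. Leukocyte and skeletal muscle sums are highest in the 3 FMD_LO libraries, at 153 to 181 and 68.7 to 105 CPM, while the sum of the 9 fibroblast marker genes and that of the SUM159 line markers overlap between groups.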

How the data were processed

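Strand-specific libraries (TruSeq stranded mRNA, per the labels' protocols) were aligned with STAR to hg38, per the submitters' processing notes. Versions, the annotation used for counting and any step for mouse reads are not given in the sources used here, whose notes name nothing more. The authors deposited raw counts per gene symbol for 3 strand settings, and the reverse-strand counts were used. Totals of 17736610 to 47587142 counts left more spread between replicates than counting alone gives for the 9 genes, where the variance within a group was 1.12 (PI16, FMD_HI) to 1550 (DCN, CTR_HI) times counting noise.

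All 12 libraries in 4 groups were fitted with edgeR 4.0.16 (robust quasi-likelihood, TMM scaling, default count filter, R 4.3.3, 8 residual degrees of freedom), which kept 15461 of 26475 genes. The standard error is the absolute log2 fold change over the square root of F. CPM use TMM-scaled library sizes. Lengths are exon unions of GENCODE annotation on GRCh38, and gene positions are RefSeq GRCh38.p14, which matched all 9 genes. Log2 CPM for correlations used a prior count of 2. The fit was tested on simulated data. Correlations of replicate deviations were 0.444, 0.285 and 0.485 for same-numbered FMD_LO and FMD_HI libraries, so these were taken as paired and the blocked calls are given beside the unblocked ones, but 0.445, 0.522 and 0.0373 under the standard diet and at most 0.0824 between diets.

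By rule the text names the 9 genes, the 3 genes of smallest p among those called per list (with values mainly for FMD_LO against CTR_LO), some of the 3 most correlated genes per gene, and direct neighbours. ELN, EFEMP1, KRT19 and genes listed only by name in counts were added after their values were seen. Members and lists were chosen with earlier results of these data known. Alternatives tried were DESeq2 1.42.0, RLE scaling, leaving out the count filter, fitting the compared groups by themselves, a replicate block, either-strand reads, thinning and each library left out. The block within each diet was added after seeing the data.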

Additional observations from a re-analysis of the deposited data

Results flagged for a closer look

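The diet effect on MFAP5 differed between the sorted populations by the test of the difference itself, at 3.66 on the log2 scale (adjusted p = 0.0369, edgeR interaction term). MFAP5 was higher in all 3 FMD_LO libraries than in all 3 CTR_LO libraries, and in CD24-high cells it averaged 0.449 ± 0.361 CPM on the standard diet and 0.166 ± 0.128 on the fasting-mimicking diet. Over its alternatives the adjusted p ran from 0.00168 to 0.134. The call was kept in 4 of the 12 fits that left out 1 library.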

How the results depend on the processing

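RLE scaling and reads of either strand kept the count of the 9 genes called in each of the 5 comparisons. In FMD_LO against CTR_LO, where 2 were called, 1 was called without the count filter and 1 with only the compared groups, while thinned libraries gave 3 with PI16 added (adjusted p = 0.0348), and leaving out 1 library gave 0 to 2. PI16 was also called without CTR_LO replicate 2 (0.0086), where the remaining CTR_LO libraries had 0 counts, so that call supports nothing. In FMD_HI against FMD_LO, where 5 were called, the same settings gave 3 and 8, and leaving out 1 library gave 2 to 7. In the interaction, where 1 was called, thinned libraries gave 0, the replicate block within each diet 3 and leaving out 1 library 0 to 2. The cause of these shifts was not tested, except that fits on compared groups hold fewer libraries and fits without the filter adjust over more genes.

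Pairing by replicate number was checked by a replicate block. The block over all 12 libraries called 3, 0, 0, 5 and 1 of the 9 in the 5 comparisons. It added DPT in FMD_LO against CTR_LO, where same-numbered libraries correlated at most at 0.0824. It turned the LUM difference there from -0.25 to 0.0431. Of all genes it called 2867, 1, 0, 2373 and 669, where the fit without a block called 2533, 0, 0, 2163 and 638. The block within each diet called 4201 genes in FMD_HI against FMD_LO and 1702 in the interaction, where DESeq2 called 1156. In FMD_HI against CTR_HI, edgeR called 1 gene without the filter and DESeq2 75. Leaving out 1 library gave 1562 to 2795 genes in FMD_LO against CTR_LO, 0 to 1 in FMD_HI against CTR_HI and 380 to 767 in the interaction.

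Other sign changes were all in differences that were not called. DPT in FMD_HI against CTR_HI became 0.179 with thinned libraries, and FBLN1 in FMD_HI against FMD_LO became 0.00186 without the filter. With 1 library left out, the log2 difference ranged in CTR_HI against CTR_LO from -1.39 to 0.41 (DCN), -0.495 to 0.207 (FAP), -0.0545 to 0.0483 (FBLN1), -1.66 to 0.739 (LUM), -1.17 to 0.199 (MFAP5), -0.0555 to 0.178 (PDPN), -4.76 to 4.25 (PI16) and -0.97 to 0.56 (THY1). In FMD_HI against CTR_HI it ranged from -1.23 to 0.295 (DCN), -1.43 to 0.344 (DPT), -0.328 to 0.136 (FAP), -0.00591 to 0.0965 (FBLN1) and -4.24 to 1.76 (PI16). In FMD_LO against CTR_LO the ranges were -0.137 to 0.829 (DCN), -0.00451 to 0.159 (FBLN1) and -0.822 to 1.34 (LUM). FBLN1 ranged from -0.107 to 0.0684 in FMD_HI against FMD_LO and from -0.0646 to 0.117 in the interaction, and DCN there from -0.105 to 1.67. PI16 in FMD_HI against CTR_HI and CTR_HI against CTR_LO, and MFAP5 in FMD_HI against CTR_HI, did not pass the filter with the compared groups alone, and DESeq2 gave no adjusted p for PI16 in FMD_HI against CTR_HI. Depth limits PI16 and MFAP5 most, at 0 to 19 and 1 to 59 counts per library.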
